A study of Homo sapiens with 16 samples.

Results

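Irinotecan was compared directly with simvastatin in the U-251 MG line, which was established from a human glioblastoma. The comparison took 8 of the 16 libraries of the series, chosen by their treatment labels: 4 from cells given irinotecan alone at 0.6 µM and 4 from cells given simvastatin alone at 0.06 µM. Treatment began 24 h after seeding and lasted 48 h in every group. The remaining 8 libraries were 4 from cells given DMSO, which served as the control, and 4 from cells given both drugs together at the same doses. They entered the model for their estimate of spread, and their levels are given beside those of the members. No control library enters the contrast itself. The 2 drugs were given at different doses, so each difference described here is between these treatments and not between equal amounts of the compounds. The labels do not tell whether replicate libraries stem from independent cultures, so p-values measure the spread between these libraries, which may be technical. In bulk RNA, a change in the number of cells of one state and a change in RNA per cell cannot be told apart.

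Irinotecan is a prodrug. Esterases release from it a compound that holds topoisomerase I on DNA after the enzyme has cut one strand, and a replication fork that meets the trapped enzyme turns the cut into a double-strand break. Simvastatin blocks HMG-CoA reductase, the enzyme that makes mevalonate, the precursor of cholesterol and of the lipid tails that anchor some proteins to membranes. When sterol in the endoplasmic reticulum falls, the factor SREBP2 is released and turns on genes of sterol synthesis and uptake, whereas oxidised sterols activate LXR, which turns on sterol export.

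Library totals ran from 24375152 to 32318888 counts with irinotecan and from 24669799 to 29756711 with simvastatin. The share of counts from mitochondrial genes was 3.19 to 4.05% with irinotecan and 2.56 to 4.22% with simvastatin (two-sided exact permutation test, p = 0.343, adjusted p = 0.411 over 12 library measures). With 4 against 4 libraries, 0.0286 is the smallest p that this test can give. Of the astrocyte markers, GFAP stood at 91.9 to 99.3 CPM with irinotecan and 177 to 180.0 CPM with simvastatin, while AQP4 and ALDH1L1 were at or near 0 in all 8 libraries. CPM are read counts relative to a library's total over the tested genes, after scaling by trimmed means of M values (TMM). EPCAM, LUM, SOX10, MAG, AIF1 and CD3E, which mark epithelium, fibroblasts, oligodendrocytes and immune cells, had no count in these 8 libraries. Other members of the same lists were abundant: KRT8 and KRT18 of the epithelial list stood at 205 to 405 and 150 to 229 CPM of all counts, THY1 of the fibroblast list at 150 to 242 CPM and CNP of the oligodendrocyte list at 281 to 358 CPM.

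Of 16647 genes tested, 5045 passed an adjusted p of 0.05, which is 30.3% (edgeR quasi-likelihood test, Benjamini-Hochberg adjustment). Of these, 2564 were higher with irinotecan (15.4% of genes tested) and 2481 were higher with simvastatin (14.9%). Both shares are the background beside which every list count below should be read. The median log2 fold change over all genes tested was -0.0034. Fold changes are given throughout as irinotecan over simvastatin on the log2 scale, with the standard error of the fit, so a negative value means a higher level with simvastatin. Most differences were small: the median size among genes that passed was 0.28. A 2-fold difference was reached by 219 genes higher with irinotecan and by 79 higher with simvastatin. Most of these were low in level: 16 of the 219 and 27 of the 79 had a mean of at least 10 CPM with either drug. The median of the higher drug mean was 0.997 CPM for the 219 genes and 2.02 CPM for the 79. In 4794 genes (28.8% of those tested) every irinotecan library lay above or below every simvastatin library. With library totals as the only scaling, 5606 genes passed and the split moved to 4073 higher with irinotecan and 1533 higher with simvastatin, or 72.7% against 50.8% of calls higher with irinotecan, while the median over all genes moved to 0.067. The TMM factors themselves were 1.025 to 1.033 with irinotecan and 0.977 to 0.983 with simvastatin, and they did not overlap (exact permutation p = 0.0286, adjusted p = 0.0490). The plot of fold change against level places the named genes among all genes tested.

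**Figure D1:**
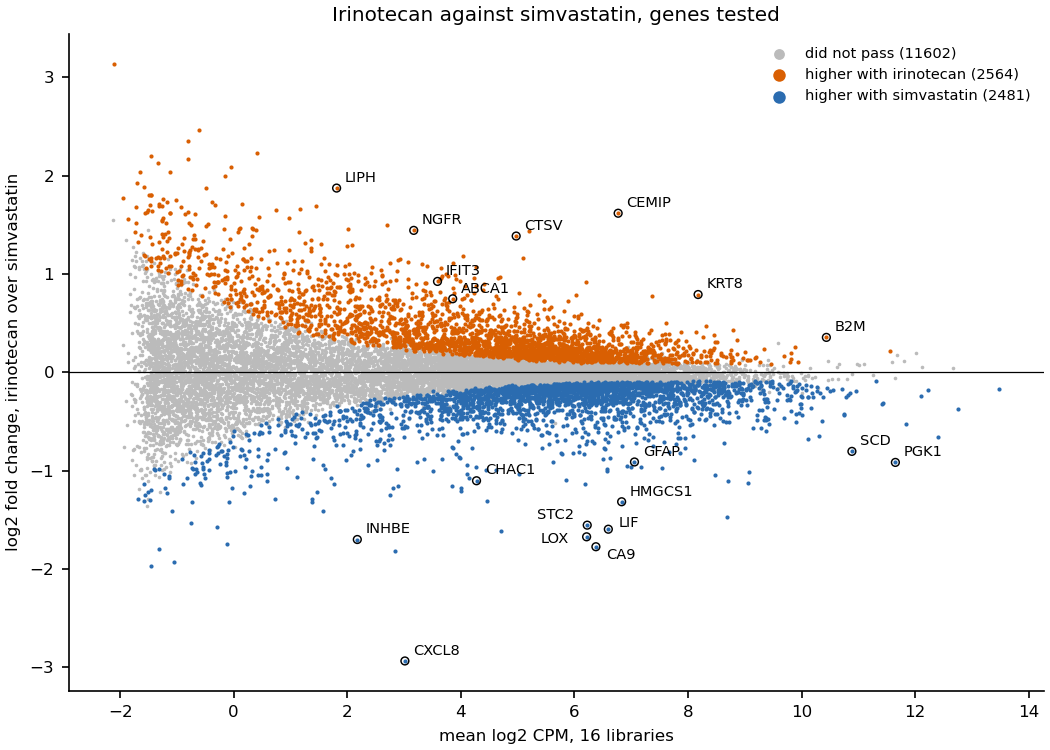
Log2 fold change of irinotecan over simvastatin (vertical axis) against mean log2 CPM over the 16 libraries (horizontal axis) for the 16647 genes tested. Orange points are the 2564 genes higher with irinotecan, blue points the 2481 higher with simvastatin at an adjusted p under 0.05, and grey points did not pass; named genes carry their symbols, with CXCL8 the lowest of these at -2.93.

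The 15 genes with the largest margin for simvastatin included the chemokine gene CXCL8, the cytokine genes LIF and IL11 and the collagen crosslinking enzyme LOX. CXCL8 (interleukin 8, a neutrophil-attracting chemokine; ENSG00000169429, GRCh38 chr4:73740506-73743716) stood at 34.3, 28.6, 28.2 and 45.7 CPM in the 4 simvastatin libraries and at 5.25, 4.83, 3.26 and 4.50 CPM in the 4 irinotecan libraries. Every simvastatin library lay far above every irinotecan library, and both groups lay above the DMSO mean of 1.05 ± 0.311 CPM (SD, n = 4). The fold change was -2.93 ± 0.17 (adjusted p = 5.48e-09), a level 7.64-fold higher with simvastatin. With both drugs the mean was 26.04 ± 1.88 CPM, nearer to simvastatin alone than to irinotecan alone.

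INHBE, which encodes the activin beta E subunit (ENSG00000139269, chr12:57452323-57459280), had the same order of groups. Its libraries stood at 9.24, 8.91, 8.02 and 12.5 CPM with simvastatin and 2.97, 3.11, 2.85 and 2.91 CPM with irinotecan, against a DMSO mean of 1.45 CPM and a mean of 9.57 CPM with both drugs. The irinotecan libraries lay within a narrow band below all simvastatin libraries (log2 fold change -1.70 ± 0.14, adjusted p = 3.95e-11).

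LIF and IL11, cytokines of the interleukin 6 family, had the DMSO level between the drugs. LIF (ENSG00000128342, chr22:30240447-30246851) stood at 183, 184, 157 and 167 CPM with simvastatin, at 57.2, 60.0, 55.0 and 56.3 CPM with irinotecan and at a mean of 122 ± 9.79 CPM with DMSO (SD, n = 4). No irinotecan library came near the lowest simvastatin library, and the fold change was -1.59 ± 0.058 (adjusted p = 9.14e-17). IL11 stood at 45.7, 44.2, 40.4 and 50.6 CPM with simvastatin and 16.0, 15.4, 15.0 and 12.4 CPM with irinotecan, again without overlap (-1.62 ± 0.081, adjusted p = 7.05e-14). With both drugs LIF averaged 73.3 CPM and sat nearer to irinotecan alone. IL11 averaged 25.6 CPM with both drugs, which on the log2 scale is close to the midpoint between the single drugs.

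LOX, the lysyl oxidase that crosslinks collagen and elastin (ENSG00000113083, chr5:122063195-122078360), stood at 133, 123, 135 and 146 CPM with simvastatin, 42.0, 36.4, 42.6 and 47.6 CPM with irinotecan and a mean of 69.3 CPM with DMSO (-1.67 ± 0.059, adjusted p = 1.74e-17). APLN, the peptide hormone apelin, stood at 12.3 to 15.0 CPM with simvastatin and 3.29 to 4.74 CPM with irinotecan (-1.81). Other genes among the 15 with the lowest fold change were KCNIP1, a potassium channel partner (-1.24), DNAH11, an axonemal dynein (-1.31), the kinase NIM1K (-1.41) and the noncoding RNA SCIRT (-1.31).

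The 15 genes with the largest margin for irinotecan were mostly low in level: 13 stood under 20 CPM in every irinotecan library. LIPH, a phospholipase that makes lysophosphatidic acid (ENSG00000163898, chr3:185506262-185552613), stood at 6.55, 6.89, 6.77 and 6.25 CPM with irinotecan and 2.23, 1.32, 2.03 and 1.57 CPM with simvastatin, beside a DMSO mean of 2.07 CPM. Its groups did not overlap (1.87 ± 0.14, adjusted p = 4.35e-12). CEMIP, which drives the breakdown of hyaluronan (ENSG00000103888, chr15:80779343-80951776), was the most abundant of the 15. It stood at 187, 171, 188 and 187 CPM with irinotecan and 55.0, 56.9, 70.7 and 55.4 CPM with simvastatin, while DMSO averaged 80.2 ± 6.25 CPM (SD, n = 4). Every irinotecan library lay above every simvastatin library by a wide margin (1.62 ± 0.072, adjusted p = 4.78e-12).

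CTSV, the lysosomal protease cathepsin V, stood at 52.7, 48.9, 52.4 and 49.0 CPM with irinotecan and 19.0, 20.5, 18.7 and 19.4 CPM with simvastatin (1.39 ± 0.056, adjusted p = 4.2e-18). NGFR, the low-affinity neurotrophin receptor p75 (ENSG00000064300, chr17:49495293-49515017), stood at 14.9, 15.5, 15.1 and 13.9 CPM and 4.77, 5.78, 5.71 and 5.56 CPM in the same order (1.44 ± 0.08, adjusted p = 6.34e-15). Neither gene had overlapping groups, and with both drugs CTSV averaged 44.0 CPM and NGFR 13.4 CPM, near the level with irinotecan alone. The other genes of this set were SMPDL3B, a sphingomyelin phosphodiesterase relative (1.70), the kinase WNK2 (1.67), the beta-tubulin TUBB4A (1.497), the secreted proteins LRRC17 (1.46) and SVEP1 (1.43), the phosphatase DUSP2 (1.35), the tyrosine-degrading enzyme HPD (1.32), the nuclear envelope protein SYNE3 (1.3), the ETS factor EHF (1.28), APOE (1.303) and IFITM1 (1.27).

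The levels of 12 genes in each library show how the DMSO level and the level with both drugs lie beside the 2 drugs.

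**Figure D2:**
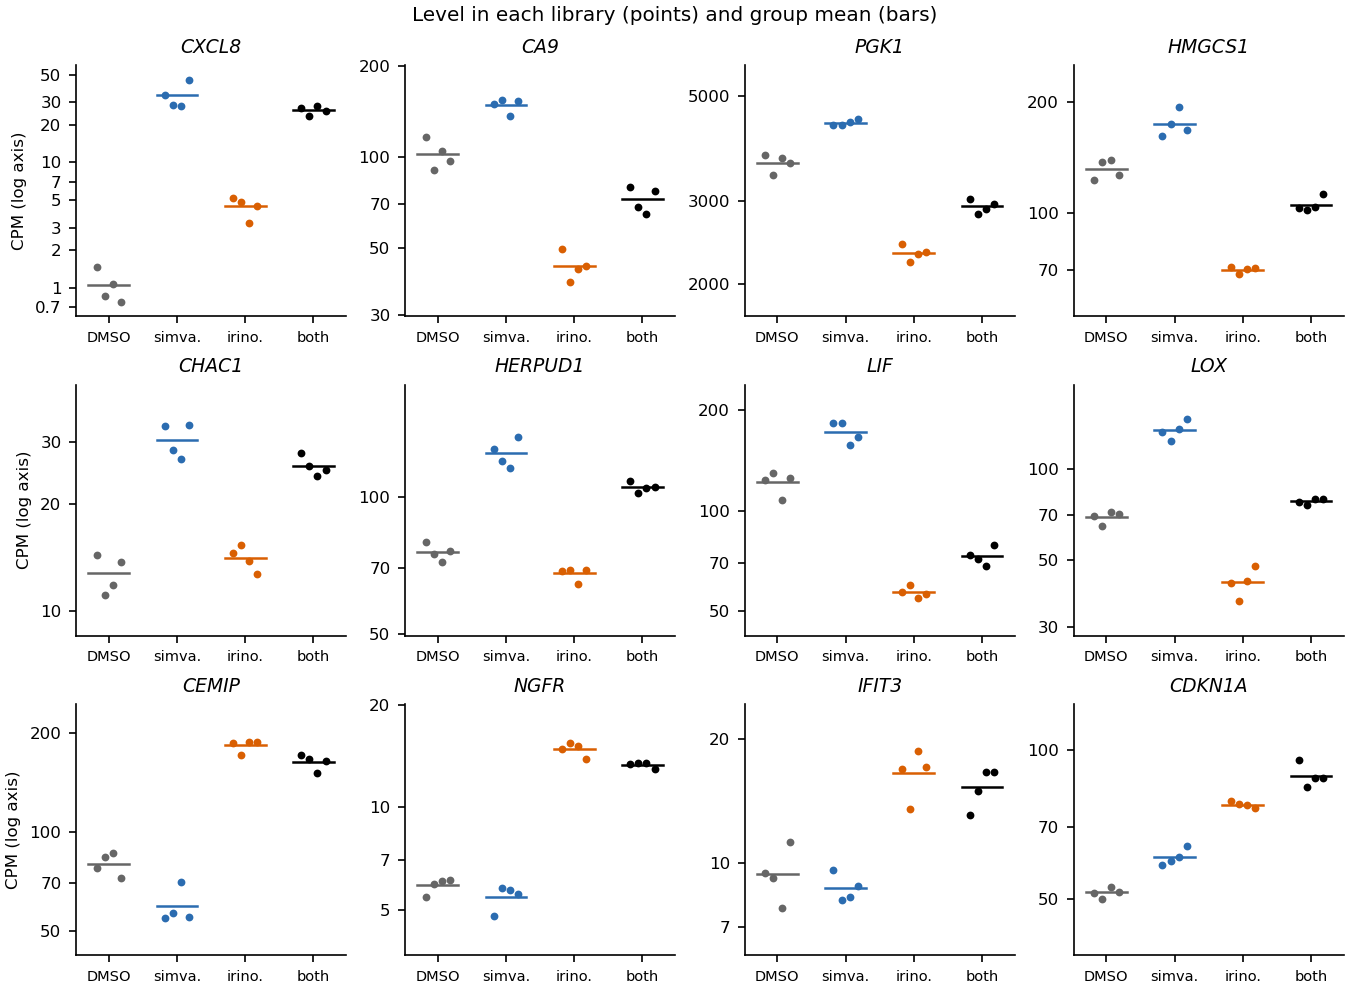
CPM on a log axis in each of the 16 libraries for 12 genes, 1 panel a gene, with the groups DMSO, simvastatin, irinotecan and both drugs from left to right; each point is a library and each bar the group mean. In all 12 panels the 4 irinotecan points and the 4 simvastatin points occupy separate ranges.

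Genes of sterol synthesis and uptake were higher with simvastatin. Of 27 tested, 21 were higher with simvastatin and 1 with irinotecan, with a median of -0.33 (18 and 2 with library totals alone). HMGCS1, which makes HMG-CoA one step before the enzyme that simvastatin blocks (ENSG00000112972, chr5:43289395-43313512), stood at 162, 174, 193 and 167 CPM with simvastatin and 71.1, 68.1, 70.3 and 70.7 CPM with irinotecan. DMSO averaged 131 ± 8.17 CPM (SD, n = 4) and lay between the 2 drugs, which did not overlap (-1.32 ± 0.05, adjusted p = 3.53e-18). INSIG1, the membrane protein that holds SREBP2 back when sterol is plentiful, stood at 283, 302, 320.5 and 298 CPM with simvastatin and 173, 168, 167 and 176 CPM with irinotecan (-0.82 ± 0.04, adjusted p = 2.74e-16). Its DMSO mean of 266 CPM was closer to simvastatin. Further members were INSIG2 (-1.04), the sterol oxidase MSMO1 (-0.83) and squalene epoxidase SQLE (-0.81), none with overlapping groups. SREBF2, the gene of SREBP2 itself, stood at 264 to 290.2 CPM with simvastatin and 217 to 227 CPM with irinotecan (-0.33 ± 0.037, adjusted p = 3.05e-08). The member higher with irinotecan was TM7SF2, a sterol reductase (0.43).

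Against DMSO, the list's median was -0.27 with irinotecan and 0.11 with simvastatin. Both values use the same DMSO libraries, as do all paired values against DMSO below, so they are given side by side and not compared. For HMGCS1 they were -0.91 and 0.41.

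Fatty acid synthesis genes lay on the same side and sterol export genes on the other. Of 12 fatty acid genes tested, 7 were higher with simvastatin and none with irinotecan (median -0.21; 0 higher with irinotecan at an unadjusted p under 0.05 and 0 by DESeq2). SCD, the desaturase that makes oleate, stood at 2382, 2390.3, 2657 and 2417 CPM with simvastatin and 1398, 1396, 1413 and 1438 CPM with irinotecan, with no overlap (-0.80 ± 0.036, adjusted p = 3.2e-17). FADS1, which desaturates polyunsaturated fatty acids, followed at -0.51. Of 8 export genes and LXR targets tested, 6 were higher with irinotecan and 2 with simvastatin (median 0.41; 6 and 1 with library totals alone). ABCA1, the pump that loads cholesterol onto lipoproteins, stood at 17.8, 16.8, 21.1 and 19.96 CPM with irinotecan and 11.4, 9.74, 12.0 and 11.7 CPM with simvastatin (0.75 ± 0.081, adjusted p = 1.2e-08). APOE, a lipoprotein that accepts that cholesterol, stood at 4.38 to 5.79 CPM and 1.38 to 2.34 CPM (1.303 ± 0.16, adjusted p = 1.07e-07). Both genes had separate groups, with the irinotecan libraries high.

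KLF2, a transcription factor raised by statins in endothelium, stood at 21.9, 21.1, 19.2 and 19.0 CPM with simvastatin, 13.2, 13.9, 13.4 and 12.0 CPM with irinotecan and a mean of 18.3 CPM with DMSO. The simvastatin libraries were all above the irinotecan libraries (-0.63 ± 0.074, adjusted p = 6.5e-08).

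Genes of amino acid supply, tRNA charging and the integrated stress response were higher with simvastatin. The integrated stress response lets the factor ATF4 be made when translation slows, and ATF4 turns on amino acid synthesis, amino acid transport and tRNA charging. All 18 genes tested of amino acid synthesis, transport and folate metabolism were higher with simvastatin (median -0.53, range -1.32 to -0.25). So were 15 of 19 cytosolic aminoacyl-tRNA synthetases (median -0.22), 12 of 23 genes of the response itself (median -0.28) and 17 of 21 genes of endoplasmic reticulum folding (median -0.19). With TMM scaling, edgeR called no member of these 4 lists higher with irinotecan. With library totals alone it called 2 members of the integrated stress response, 2 synthetases and 1 folding gene higher with irinotecan. At an unadjusted p under 0.05, 2 members of the integrated stress response and 1 synthetase were, and DESeq2 called 1 member of each of those lists.

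ATF4 (ENSG00000128272, chr22:39519695-39522685) stood at 448, 433, 392 and 449.7 CPM with simvastatin and 306, 308, 288 and 288 CPM with irinotecan. All simvastatin libraries lay above the irinotecan libraries (-0.53 ± 0.041, adjusted p = 9.97e-12), and the DMSO mean of 349 CPM lay between them. CHAC1, which degrades glutathione, stood at 33.2, 28.4, 26.7 and 33.4 CPM with simvastatin and 14.6, 15.3, 13.9 and 12.7 CPM with irinotecan, beside 12.8 ± 1.58 CPM with DMSO (SD, n = 4). The irinotecan libraries were close to the DMSO mean and all 4 simvastatin libraries were high (-1.10 ± 0.082, adjusted p = 1.81e-11). STC2, a secreted inhibitor of the protease PAPP-A, stood at 134, 125, 126 and 136 CPM with simvastatin and 43.7, 43.0, 44.3 and 46.7 CPM with irinotecan (-1.55 ± 0.053, adjusted p = 3.38e-19). DDIT4, a brake on mTORC1, stood at 87.6 to 93.7 CPM and 38.8 to 45.3 CPM in the same order (-1.09).

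TRIB3, the pseudokinase that feeds back on ATF4, stood at 62.3, 58.7, 51.2 and 71.5 CPM with simvastatin and 44.1, 47.0, 43.0 and 39.0 CPM with irinotecan (-0.49 ± 0.084, adjusted p = 0.000194). Both drugs lay above its DMSO mean of 33.1 CPM. DDIT3, the stress factor CHOP, did not pass: its libraries stood at 14.0, 15.6, 11.6 and 12.9 CPM with simvastatin and 12.7, 13.7, 11.7 and 12.5 CPM with irinotecan, with overlapping groups (-0.087 ± 0.10, adjusted p = 0.545). GDF15, a secreted stress hormone, also overlapped, at 23.2, 18.2, 17.1 and 25.8 CPM with simvastatin and 25.7, 25.1, 24.5 and 23.6 CPM with irinotecan (0.24 ± 0.092, adjusted p = 0.0592). The call for GDF15 depended on the tool and on single libraries: it passed with DESeq2 (0.23, adjusted p = 0.0499), without simvastatin replicate 1 (0.29, adjusted p = 0.0317) and without simvastatin replicate 4 (0.35, adjusted p = 0.00159). All 8 of its values lay above the DMSO mean of 9.04 ± 0.946 CPM (SD, n = 4).

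Among suppliers of amino acids, PSAT1 of serine synthesis stood at 296, 275, 281 and 314 CPM with simvastatin and 188, 184, 179 and 182 CPM with irinotecan (-0.67 ± 0.04, adjusted p = 5.91e-14). SLC7A5, which imports large neutral amino acids, stood at 369.9 to 413 CPM and 200.4 to 215 CPM (-0.89). CTH, which makes cysteine, stood at 20.8 to 24.0 CPM and 11.2 to 13.4 CPM (-0.87), and its DMSO mean of 11.1 CPM lay near the irinotecan level. The cystine importer SLC7A11 (-0.96) and the synthetases MARS1 (-0.45) and IARS1 (-0.40), which charge methionine and isoleucine, had separate groups as well. In the endoplasmic reticulum, the chaperone HSPA5 stood at 1609, 1506, 1512 and 1737 CPM with simvastatin and 1034, 1047, 1022 and 966 CPM with irinotecan (-0.65 ± 0.04, adjusted p = 1.29e-13). HERPUD1, a part of the degradation complex, stood at 128, 120.2, 116 and 136 CPM and 69.0, 69.3, 64.5 and 69.2 CPM (-0.88 ± 0.045, adjusted p = 1.3e-15), and XBP1, the factor that is spliced during folding stress, at 134 to 161 CPM and 94.7 to 99.2 CPM (-0.59). In each of these genes the 4 simvastatin libraries were the high ones.

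Side by side against DMSO, the medians with irinotecan and with simvastatin were -0.12 and 0.44 for amino acid supply, -0.056 and 0.16 for the synthetases, 0.065 and 0.43 for the integrated stress response, and -0.13 and 0.056 for folding.

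The promoters of CHAC1 and HERPUD1 are shown because both genes were higher with simvastatin and their upstream windows hold the 8-letter pattern TGATGNAA, written for the composite element that ATF4 binds together with CCAAT enhancer factors. Each line gives the 250 bases before the transcription start, 5′ to 3′ on the gene's strand, from RefSeq (GRCh38.p14), with the match on either strand in capitals. The CHAC1 window is chr15:40953221-40953470 on the plus strand and the HERPUD1 window chr16:56931892-56932141 on the plus strand.
CHAC1: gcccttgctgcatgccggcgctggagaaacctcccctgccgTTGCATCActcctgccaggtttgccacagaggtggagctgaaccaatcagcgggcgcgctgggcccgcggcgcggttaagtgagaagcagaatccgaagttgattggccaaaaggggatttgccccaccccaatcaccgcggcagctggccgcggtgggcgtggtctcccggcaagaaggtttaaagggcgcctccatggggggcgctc
HERPUD1: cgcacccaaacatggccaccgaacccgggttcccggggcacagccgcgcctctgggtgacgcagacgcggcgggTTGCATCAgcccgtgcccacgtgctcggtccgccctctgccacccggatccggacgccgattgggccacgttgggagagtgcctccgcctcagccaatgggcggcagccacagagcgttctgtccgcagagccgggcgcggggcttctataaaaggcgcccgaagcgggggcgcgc
On either strand of these 250 bases, the pattern was found in 2 of 20 promoters of the integrated stress response list. It was found in 2 of 13 of the amino acid list, 2 of 15 of the synthetase list and 1 of 20 of the folding list. The same search found it in 870 of 27305 promoters in the table (3.19%) and 172 of 11717 promoters of genes tested (1.47%). A match is a description of the letters and not evidence of binding.

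Hypoxia and glycolysis genes were higher with simvastatin almost throughout. HIF1 is stabilised when oxygen is short and turns on glucose uptake, glycolysis, blood vessel growth and pH control. Of 38 genes tested, 31 were higher with simvastatin and 1 with irinotecan (median -0.53; 31 and 3 with library totals alone). By role, 11 of 13 other HIF targets and 18 of 19 genes of glucose uptake and glycolysis were higher with simvastatin, with medians of -0.73 and -0.52. The member higher with irinotecan was EPAS1, the gene of HIF2 alpha (0.26). HIF1A stood at 1082 to 1190.3 CPM with simvastatin and 1052 to 1144 CPM with irinotecan and did not pass (-0.032 ± 0.037, adjusted p = 0.563).

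CA9, the carbonic anhydrase that acidifies the medium around hypoxic cells (ENSG00000107159, chr9:35673856-35681159), stood at 150.1, 155, 137 and 154 CPM with simvastatin and 49.6, 38.6, 42.7 and 43.5 CPM with irinotecan. The groups lay far apart, and the DMSO mean of 102 ± 11.0 CPM (SD, n = 4) fell between them (-1.77 ± 0.09, adjusted p = 3.94e-10). PGK1, the first enzyme of glycolysis to yield ATP (ENSG00000102144, chrX:77910739-78129296), stood at 4335, 4344, 4395 and 4462 CPM with simvastatin and 2433, 2222, 2314 and 2330.4 CPM with irinotecan (-0.92 ± 0.035, adjusted p = 1.1e-18). It was 1.89-fold higher with simvastatin and its DMSO mean was 3611 CPM. BNIP3, a mitophagy receptor, stood at 775, 778, 763 and 808 CPM and 367, 344, 336 and 387 CPM (-1.12 ± 0.042, adjusted p = 9.96e-19); a processed copy of this gene exists, and reads shared with it were not resolved here. VEGFA, the endothelial growth factor, stood at 633, 697, 621 and 589.9 CPM and 306, 268, 286 and 319 CPM (-1.11 ± 0.062, adjusted p = 1.02e-10). ADM, the vasodilator adrenomedullin (-1.14), PFKFB4, which makes the activator of phosphofructokinase (-1.004), and P4HA1, a collagen prolyl hydroxylase (-0.73), were also higher in every simvastatin library than in any irinotecan library. TXNIP, a brake on glucose uptake, ran the other way, at 307, 314, 345 and 334 CPM with irinotecan and 242, 241, 243 and 255 CPM with simvastatin (0.41 ± 0.039, adjusted p = 9.78e-10). Against DMSO, the medians of the hypoxia list were -0.38 with irinotecan and 0.19 with simvastatin.

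The promoters of CA9 and PGK1 are shown because the 5-letter core of the hypoxia response element, ACGTG, lies in both. The windows are chr9:35673678-35673927 and chrX:78103998-78104247, both on the plus strand of GRCh38.p14 (RefSeq), written as above with matches on either strand in capitals.
CA9: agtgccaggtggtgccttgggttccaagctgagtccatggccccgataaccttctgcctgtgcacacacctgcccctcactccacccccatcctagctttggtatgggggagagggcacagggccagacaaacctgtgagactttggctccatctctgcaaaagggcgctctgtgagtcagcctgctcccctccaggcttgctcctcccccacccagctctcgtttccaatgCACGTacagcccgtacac
PGK1: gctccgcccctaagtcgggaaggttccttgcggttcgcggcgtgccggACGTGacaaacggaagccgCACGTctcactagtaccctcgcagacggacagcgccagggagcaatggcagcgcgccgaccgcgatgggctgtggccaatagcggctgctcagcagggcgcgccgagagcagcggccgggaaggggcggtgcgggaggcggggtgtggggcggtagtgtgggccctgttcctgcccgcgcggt
Searched only in the bases before the start, the core was found in 14 of 33 promoters of the hypoxia and glycolysis list (42.4%). The same search found the core in 18.7% of the 27305 promoters and in 23.2% of the 11717 promoters of genes tested. Lists with other roles held it as often, such as 7 of 14 splicing regulators and 8 of 19 SMADs and regulators (42.1%). Where a C precedes it, the core is part of the E-box CACGTG, which other factors bind.

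**Figure D3:**
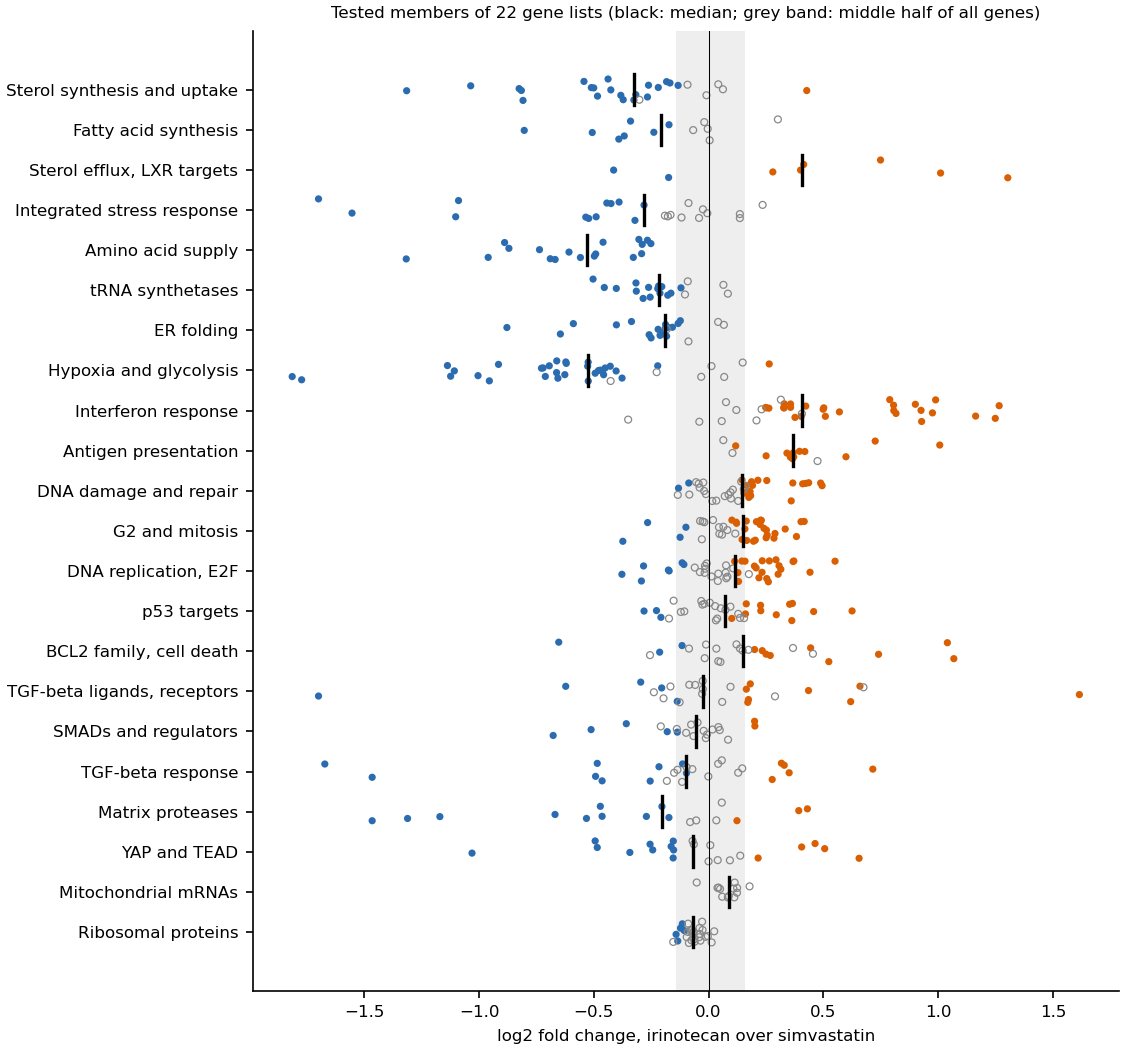
Log2 fold change of irinotecan over simvastatin (horizontal axis) for every tested member of 22 gene lists (rows); filled points passed an adjusted p of 0.05, open points did not, and black ticks mark list medians. The grey band runs from the first to the third quartile of all 16647 genes; the hypoxia and amino acid medians lie left of it and the interferon and antigen presentation medians right of it.

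Interferon-stimulated genes and the antigen presentation machinery were higher with irinotecan. Interferons signal through STAT factors to a large set of antiviral genes, and antigen presentation brings peptides to the cell surface on HLA class I. Of 36 interferon response genes tested, 27 were higher with irinotecan and none with simvastatin (median 0.40). Of 15 antigen presentation genes, 12 were higher with irinotecan and none with simvastatin (median 0.37), including 6 of 6 class I genes. In both lists 0 members were higher with simvastatin at an unadjusted p under 0.05 in edgeR, and 0 by DESeq2.

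IFIT3, an antiviral RNA-binding partner (ENSG00000119917, chr10:89327894-89340971), stood at 17.0, 13.5, 18.7 and 17.1 CPM with irinotecan and 9.61, 8.13, 8.26 and 8.83 CPM with simvastatin. Its groups did not overlap, and the DMSO mean of 9.43 ± 1.43 CPM (SD, n = 4) lay within the simvastatin range (0.93 ± 0.11, adjusted p = 1.35e-07). MX1, a GTPase that blocks influenza, stood at 18.8, 16.9, 22.5 and 21.8 CPM with irinotecan and 10.7, 12.3, 10.2 and 12.5 CPM with simvastatin (0.81 ± 0.10, adjusted p = 2.38e-07). IFIT2 had a fold change of 0.79 and IFI6, a regulator of cell death, of 0.50. IFITM3, which keeps viruses from entering, stood at 86.5 to 95.7 CPM and 58.1 to 66.1 CPM (0.50), with the reservation that IFITM1, IFITM2 and IFITM3 are near-identical in part and the counting could split their reads.

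B2M, the small subunit of HLA class I molecules (ENSG00000166710, chr15:44711487-44718877), stood at 1577, 1572, 1568 and 1575 CPM with irinotecan and 1232, 1235, 1189 and 1258 CPM with simvastatin. The 4 irinotecan values were almost equal and all above the simvastatin values (0.36 ± 0.033, adjusted p = 4.24e-10). NLRC5, the factor that turns on class I genes, stood at 14.9, 13.5, 15.7 and 16.6 CPM and 9.43, 10.1, 9.26 and 7.86 CPM (0.73 ± 0.088, adjusted p = 1.07e-07). PSMB8, a subunit of the immunoproteasome, had a fold change of 0.42. HLA-E (0.37) and HLA-F (1.01) are uncertain because HLA genes share sequence and can exchange reads. Against DMSO, the interferon list had medians of 0.43 with irinotecan and -0.086 with simvastatin, and the antigen presentation list 0.34 and -0.047.

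The promoters of IFIT3 and IFI6 are shown because they hold 2 and 3 matches to the interferon-stimulated response element, searched on both strands as GAAA, any 2 bases and GAAA again. The windows are chr10:89327747-89327996 on the plus strand and chr1:27672193-27672442 on the minus strand of GRCh38.p14 (RefSeq), again 250 bases before the start.
IFIT3: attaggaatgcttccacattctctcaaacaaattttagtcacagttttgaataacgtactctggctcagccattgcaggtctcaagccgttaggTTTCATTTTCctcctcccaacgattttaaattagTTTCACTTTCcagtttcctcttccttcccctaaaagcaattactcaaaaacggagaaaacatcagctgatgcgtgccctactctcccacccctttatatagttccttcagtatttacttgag
IFI6: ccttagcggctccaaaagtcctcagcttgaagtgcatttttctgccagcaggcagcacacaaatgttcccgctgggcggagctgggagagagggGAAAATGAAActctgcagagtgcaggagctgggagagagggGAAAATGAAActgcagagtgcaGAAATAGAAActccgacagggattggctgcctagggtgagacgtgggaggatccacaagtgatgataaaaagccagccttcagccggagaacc
In these 250 bases, 16 of 27 interferon response promoters (59.3%) and 6 of 12 antigen presentation promoters held at least 1 match. The shares were 3.07% of all promoters and 2.34% of those of genes tested.

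TOP1, the target of irinotecan, did not differ beyond the spread of the libraries. It stood at 185, 193, 193 and 191 CPM with irinotecan and 176, 173, 186 and 193 CPM with simvastatin, with overlapping groups (0.065 ± 0.039, adjusted p = 0.219). With library totals alone the fold change of TOP1 was 0.14 and passed (adjusted p = 0.0047). TOP2A, the topoisomerase of dividing cells, was higher with irinotecan at 987 to 1099.9 CPM against 832 to 947 CPM (0.26 ± 0.04, adjusted p = 7.38e-06). TDP1, which removes trapped topoisomerase I from DNA ends, was slightly higher with simvastatin (-0.14 ± 0.045, adjusted p = 0.0144), but did not pass with library totals alone (adjusted p = 0.223). Of 10 tested genes of irinotecan activation and drug efflux, BCHE, an esterase, was the one that passed with TMM scaling, with 0.23 ± 0.079 (adjusted p = 0.0258). With library totals alone 4 of the 10 passed, all higher with irinotecan, and these were 3 of 3 esterases and 1 of 6 efflux and uptake genes. BCHE did not pass without irinotecan replicate 1 (adjusted p = 0.0679) or 3 (0.071), nor without simvastatin replicate 3 (0.0629) or 4 (0.0679).

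DNA damage and cell division genes differed by small amounts, and more of them were higher with irinotecan. Of 39 genes of damage signalling and repair tested, 18 were higher with irinotecan and 2 with simvastatin (median 0.15; 27 and 0 with library totals alone). Homologous recombination contributed 10 of 15 and the Fanconi pathway 4 of 5. EXO1, the exonuclease that resects breaks, stood at 58.9, 57.1, 59.8 and 59.2 CPM with irinotecan and 40.8, 41.6, 41.9 and 42.6 CPM with simvastatin, 2 tight groups that did not overlap (0.49 ± 0.04, adjusted p = 4.13e-11). BLM, a recombination helicase, had a fold change of 0.49. FANCI and FANCD2, which load together at stalled forks, had fold changes of 0.41 and 0.42.

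Of 38 genes of G2 phase and mitosis tested, 23 were higher with irinotecan and 4 with simvastatin (median 0.15; 27 and 2 with library totals alone). CDK1, the mitotic kinase, stood at 219, 213, 222 and 207 CPM with irinotecan and 167, 165, 166 and 161 CPM with simvastatin (0.38 ± 0.034, adjusted p = 3.03e-10). FOXM1, a factor that turns on mitotic genes (0.33), the phosphatase CDC25B (0.40) and the spindle protein HMMR (0.42) were higher with irinotecan, while WEE1, the kinase that holds CDK1 inactive, was higher with simvastatin (-0.37). MKI67, the antigen of cycling cells, did not pass: it stood at 1058, 949.7, 1258 and 1211 CPM with irinotecan and 1018, 993, 1215 and 1107 CPM with simvastatin (0.047 ± 0.10, adjusted p = 0.776).

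Of 43 DNA replication and E2F genes tested, 21 were higher with irinotecan and 7 with simvastatin (median 0.11; 28 and 3 with library totals alone). CDT1, which loads the replicative helicase, stood at 84.5, 87.2, 79.1 and 73.7 CPM with irinotecan and 59.1, 56.4, 51.2 and 55.1 CPM with simvastatin (0.55 ± 0.052, adjusted p = 7.04e-10). RRM2, the subunit of ribonucleotide reductase made in S phase, followed at 0.31. Of 16 genes of the helicase and of origins, 7 were higher with irinotecan and 3 with simvastatin, or 10 and 2 with library totals alone. Among those higher with simvastatin were the helicase subunits MCM6 at 168, 165, 176 and 170.5 CPM with simvastatin and 130.2, 131, 130.3 and 133 CPM with irinotecan (-0.38 ± 0.033, adjusted p = 1.92e-10) and MCM5 at -0.29. The DMSO means of MCM6 and MCM5, 184 and 223 CPM, lay above both drugs. Side by side against DMSO, the list medians with irinotecan and with simvastatin were 0.067 and -0.065 for damage signalling and repair. They were 0.018 and -0.11 for G2 and mitosis, and 0.011 and -0.095 for replication and E2F genes.

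Among p53 targets, 11 of 31 tested were higher with irinotecan and 3 with simvastatin (median 0.073), or 15 and 2 with library totals alone. CDKN1A, the inhibitor p21 (ENSG00000124762, chr6:36676460-36687339), stood at 78.8, 77.8, 77.6 and 76.3 CPM with irinotecan and 58.6, 59.7, 60.8 and 63.9 CPM with simvastatin. The groups did not overlap (0.35 ± 0.042, adjusted p = 8.97e-08), and both lay above the DMSO mean of 51.5 ± 1.198 CPM (SD, n = 4). FDXR, a mitochondrial reductase, had a fold change of 0.46 and XPC, which recognises damaged bases, of 0.37. The part of p53 itself in these differences was not tested. Of 25 genes of the BCL2 family and cell death tested, 9 were higher with irinotecan and 3 with simvastatin (median 0.15), or 13 and 1 with library totals alone. BCL2L11, the death activator BIM, stood at 63.4, 65.8, 72.7 and 69.8 CPM with irinotecan and 45.6, 50.8, 55.2 and 47.7 CPM with simvastatin (0.44 ± 0.054, adjusted p = 1.28e-07). BIK (1.04) and BMF (1.07), which are activators of the same class, were low in level, at 2.57 to 3.47 and 1.299 to 1.92 CPM with irinotecan against 1.02 to 1.77 and 0.492 to 1.197 CPM. TNFSF10, the death ligand TRAIL, had a fold change of 0.74.

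TGF-beta ligands and receptors showed no common direction. Of 25 TGF-beta response genes tested, 9, among them LOX, were higher with simvastatin and 5 with irinotecan. Of 26 genes of ligands, receptors and latency tested, 8 were higher with irinotecan and 5 with simvastatin, or 11 and 2 with library totals alone (median -0.025, or 0.045 with library totals alone). TGFB1 stood at 131, 135, 122 and 126 CPM with irinotecan and 135, 135, 124 and 130.1 CPM with simvastatin (-0.028 ± 0.043, adjusted p = 0.674). TGFB2 (-0.025 ± 0.07, adjusted p = 0.825) and TGFBR1 (-0.084 ± 0.049, adjusted p = 0.209) overlapped too. TGFBR2, the receptor that binds ligand first, was higher with irinotecan at 91.6 to 99.96 CPM against 80.7 to 88.4 CPM (0.17 ± 0.042, adjusted p = 0.00229). INHBA, the activin beta A subunit, was higher with irinotecan but under 1 CPM in all 8 libraries (1.62 ± 0.34, adjusted p = 0.000386).

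Of 20 SMADs and regulators tested, 2 were higher with irinotecan and 5 with simvastatin, or 4 and 3 with library totals alone (median -0.057, or 0.014 with library totals alone). SMAD3, a carrier of the TGF-beta signal, stood at 123 to 131 CPM with irinotecan and 107 to 115 CPM with simvastatin (0.20 ± 0.037, adjusted p = 6.95e-05). PMEPA1, which sequesters SMADs, stood at 1336, 1370.0, 1379.6 and 1403 CPM with simvastatin and 866, 865, 849 and 852 CPM with irinotecan, with a wide gap between them (-0.68 ± 0.033, adjusted p = 2.74e-16). SMAD7 was below 1 CPM in every library of both groups and did not pass (-0.21 ± 0.30, adjusted p = 0.649). Of 25 response genes tested, 5 were higher with irinotecan and 9 with simvastatin (median -0.10), or 5 and 6 with library totals alone (median -0.026). Fold changes in this list ran from -1.67 for LOX to 0.72. Besides LOX, those higher with simvastatin included CCN2, the matricellular growth factor, and the gelatinase MMP2 (-0.46). CCN2 stood at 690.4, 677, 653 and 673 CPM with simvastatin and 469.9, 503, 485 and 466 CPM with irinotecan (-0.49 ± 0.042, adjusted p = 1.11e-10). The BMP ligands BMP4 (1.01) and GDF6 (1.24) were higher with irinotecan, and ID1, a target that BMP signalling turns on, was higher with simvastatin (-0.49).

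Matrix genes split by class. Of 13 collagens tested, 9 were higher with simvastatin and 1 with irinotecan (median -0.28), or 7 and 2 with library totals alone, whereas of 15 laminins and matrix glycoproteins 8 were higher with irinotecan and 1 with simvastatin (median 0.14). COL8A1, a short-chain collagen, stood at 166, 169, 177 and 175 CPM with simvastatin and 103, 102, 105 and 107 CPM with irinotecan (-0.72 ± 0.037, adjusted p = 1.01e-15). Among 17 matrix proteases and inhibitors, 10 were higher with simvastatin and 3 with irinotecan. PLAU, the plasminogen activator urokinase, stood at 287, 279.8, 273 and 305 CPM with simvastatin and 181, 193, 174 and 172 CPM with irinotecan (-0.67 ± 0.041, adjusted p = 1e-13), and its receptor PLAUR had a fold change of -0.53.

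The protease PAPP-A cleaves IGF-binding proteins and releases IGF, and stanniocalcins block it. PAPPA stood at 22.4, 21.8, 25.5 and 21.6 CPM with simvastatin and 8.86, 9.21, 10.2 and 12.5 CPM with irinotecan (-1.17 ± 0.082, adjusted p = 1.75e-12). STC1 stood at 482, 495, 539 and 503 CPM and 244, 231, 244 and 260.3 CPM (-1.05 ± 0.043, adjusted p = 8.72e-18), so that the protease and both inhibitors, STC2 included, were higher with simvastatin. IGFBP4, a substrate of PAPP-A, was higher with irinotecan at 28.1 to 31.7 CPM against 17.7 to 21.2 CPM (0.65). Against DMSO, PAPPA differed by -1.31 with irinotecan and -0.14 with simvastatin, and STC2 by -0.55 and 1.00.

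Genes of the YAP and TEAD list had no common direction under every scaling. Of 22 tested, 5 were higher with irinotecan and 10 with simvastatin, or 6 and 6 with library totals alone, with a median of -0.067, or 0.0035 with library totals alone. NT5E, the surface enzyme that makes adenosine, stood at 24.2, 20.2, 23.3 and 25.7 CPM with simvastatin and 9.80, 11.8, 12.6 and 11.4 CPM with irinotecan (-1.03 ± 0.079, adjusted p = 1.12e-11). AMOTL2, an inhibitor of YAP, had a fold change of -0.49. Among 14 genes of ERK feedback, 2 were higher with irinotecan and 6 with simvastatin: SPRY1, a receptor-level brake, stood at 16.4 to 18.1 CPM with simvastatin and 8.05 to 10.2 CPM with irinotecan (-0.88), and the phosphatase DUSP4 at 38.2 to 41.7 CPM and 56.4 to 60.0 CPM (0.56).

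Several glial genes were higher with simvastatin. GFAP, the intermediate filament of astrocytes (ENSG00000131095, chr17:44903161-44916937), stood at 177, 179, 180.0 and 177 CPM with simvastatin and 93.8, 94.0, 99.3 and 91.9 CPM with irinotecan, each group in a narrow band (-0.91 ± 0.04, adjusted p = 3.15e-17). Its DMSO mean was 203 ± 10.4 CPM (SD, n = 4). FABP7, the fatty acid carrier of radial glia, stood at 269.6, 266, 263 and 272 CPM and 160.4, 156, 147 and 148 CPM (-0.80 ± 0.036, adjusted p = 3.15e-17). SOX9, a factor of glial precursors, had a fold change of -0.39. Of 20 proneural and glial stem cell genes tested, 9 were higher with simvastatin and 3 with irinotecan (median -0.16).

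Summed levels of marker lists for other cell types moved with treatment as well. The 8 epithelial markers summed, scaled to all counts, to 638 to 698 CPM with irinotecan and 388 to 424 CPM with simvastatin, with 4 of 5 tested members higher with irinotecan and EPCAM at 0. KRT8 carried most of this sum, at 395, 385, 373 and 359 CPM and 224, 218, 209.7 and 221 CPM (0.79 ± 0.044, adjusted p = 1.05e-14), and KRT15 (0.81) and CLDN4 (0.63) had the same direction; KRT8 and KRT18 overlap on opposite strands and keratins have many copies. The 8 fibroblast and pericyte markers summed to 274 to 287 CPM with irinotecan and 184 to 197 CPM with simvastatin, with 4 of 5 tested members higher with irinotecan, or 2 without irinotecan replicate 4 or simvastatin replicate 1, and LUM at 0. The 7 endothelial markers summed to 10.1 to 11.3 CPM and 6.69 to 7.26 CPM, with 3 of 4 tested members higher with irinotecan, and the 12 neuronal markers to 891 to 941 CPM and 1169 to 1187 CPM. NEFL, a neurofilament gene, made up most of the neuronal sum (-0.46), and of 10 neuronal markers tested 3 were higher with simvastatin and 1 with irinotecan, with a median of -0.064, or 0.0051 with library totals alone. The 6 oligodendrocyte markers summed to 327 to 360.0 CPM with irinotecan and 282 to 286 CPM with simvastatin, nearly all of it from CNP (0.22), the 1 of 4 tested members that passed. The 8 astrocyte markers summed to 337 to 351 CPM with irinotecan and 415 to 439 CPM with simvastatin. Of 6 astrocyte markers tested, 3 were higher with simvastatin and 0 with irinotecan, and GFAP had the lowest fold change (-0.91). Each of these 6 sums separated the groups (exact permutation p = 0.0286, adjusted p = 0.0490), whereas the 8 immune markers summed to 1.72 to 2.63 CPM and 1.28 to 2.08 CPM (p = 0.486, adjusted p = 0.530). The part of these lists in the other differences was not tested.

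Housekeeping lists lay close to 0. None of the 13 mitochondrially encoded mRNAs tested passed in edgeR, 0 had an unadjusted p under 0.05, and DESeq2 called 0. Of 27 nuclear genes of the respiratory chain, 3 were higher with simvastatin, and of 27 ribosomal protein genes 5 were, with medians of -0.018 and -0.069. The ribosomal count was 0 without irinotecan replicate 4, simvastatin replicate 1 or simvastatin replicate 4, 2 without irinotecan replicate 3 and 8 without simvastatin replicate 3. With library totals alone these medians were 0.052 and 0.0012, so their direction depended on the scaling, and the calls were 4 respiratory genes higher with irinotecan and 0 ribosomal genes higher with simvastatin.

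More of the very long genes were higher with simvastatin than with irinotecan. Of 603 protein-coding genes longer than 300 kb that were tested, 30.7% were higher with simvastatin and 11.8% with irinotecan, with a median of -0.09. In the class of 30 to 100 kb, which held 4398 genes, the shares were 16.1% and 20.2% and the median 0.020. Genes under 10 kb had 18.03% higher with simvastatin and 14.5% with irinotecan. Against DMSO, the longest class had medians of -0.10 with irinotecan and -0.03 with simvastatin. With library totals alone its median in the direct comparison was -0.02, still the lowest of the 5 classes.

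**Figure D4:**
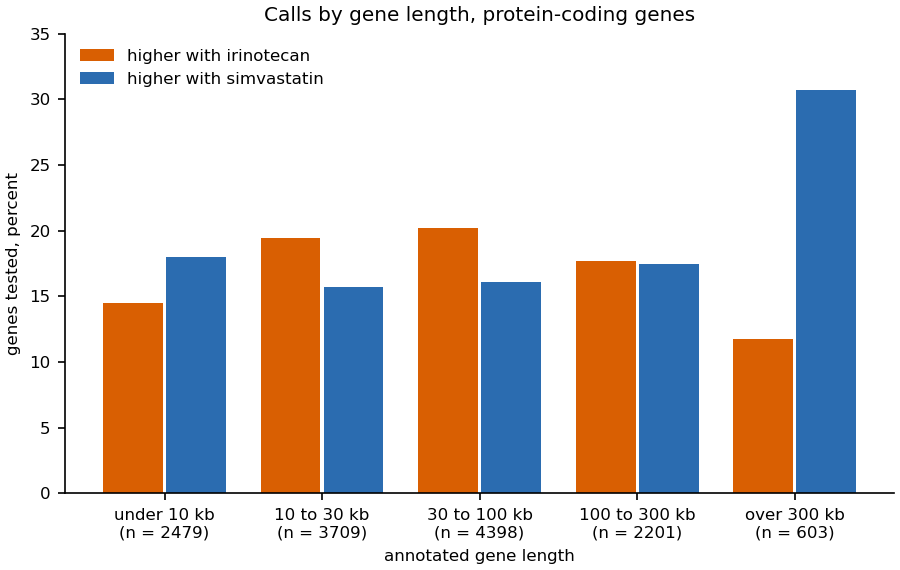
Share of tested protein-coding genes in 5 classes of annotated gene length (horizontal axis, kb) that were higher with irinotecan (orange) or with simvastatin (blue) at an adjusted p under 0.05 (vertical axis, percent, from 0). The class over 300 kb has the highest share for simvastatin, 30.7%, and the lowest for irinotecan, 11.8%.

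The libraries given both drugs placed the lists differently. For each gene that passed, the mean level with both drugs was set on a log2 scale on which the simvastatin mean is 0 and the irinotecan mean is 1, and a gene was counted as nearer irinotecan above the midpoint. Of all 5045 genes that passed, 3808 were nearer irinotecan. Of the genes with at least a 2-fold difference, 201 of 219 that were higher with irinotecan and 54 of 79 that were higher with simvastatin lay nearer irinotecan. The hypoxia list had 30 of 32 genes nearer irinotecan, the sterol list 20 of 22 and the interferon list 24 of 27. The integrated stress response had 3 of 12, amino acid supply 5 of 18, the tRNA synthetases 2 of 15 and endoplasmic reticulum folding 5 of 17, so most of their members lay nearer simvastatin. CA9 averaged 72.6 ± 7.09 CPM with both drugs and HMGCS1 105 ± 5.06 CPM, both nearer irinotecan, whereas CHAC1 averaged 25.6 ± 1.62 CPM and HERPUD1 105 ± 2.64 CPM, nearer simvastatin (SD, n = 4). These positions are a description chosen after the values were seen, and no difference between lists was tested.

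**Figure D5:**
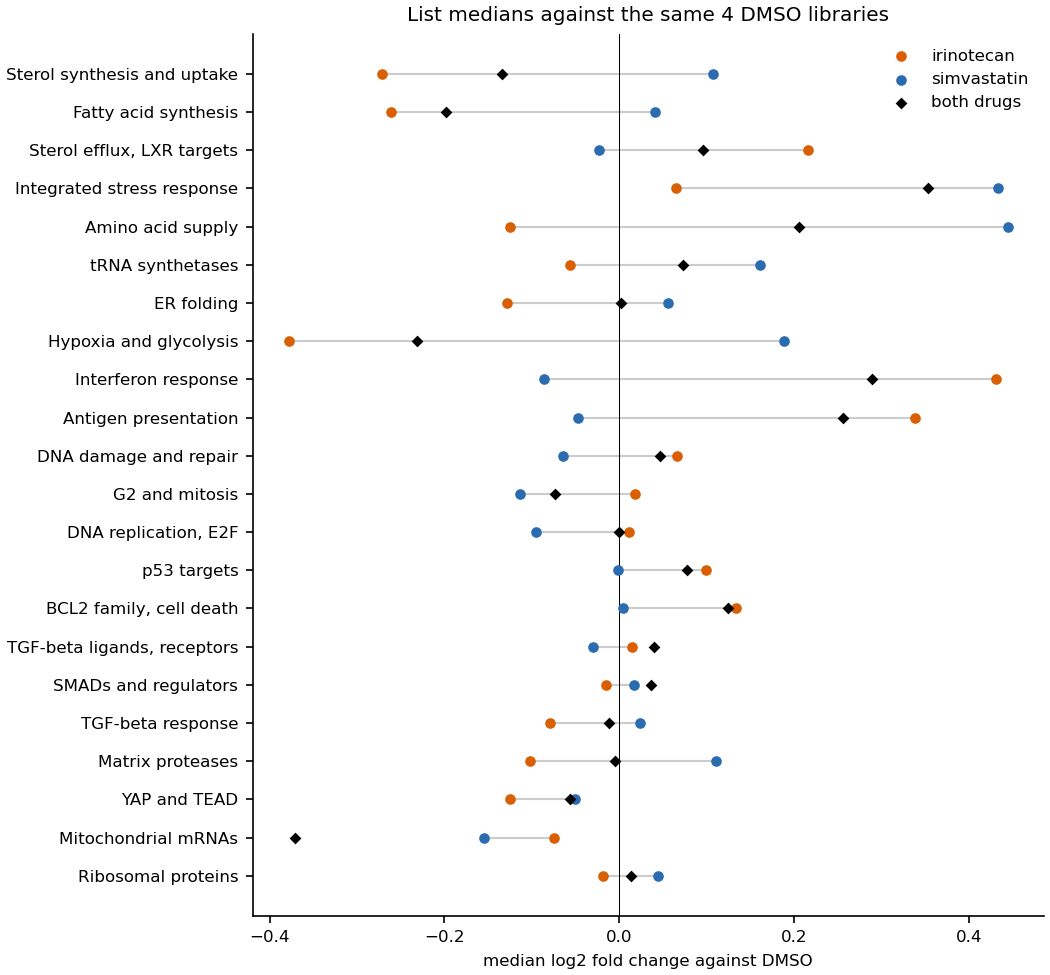
Median log2 fold change against DMSO of the tested members of 22 gene lists (rows) with irinotecan (orange), simvastatin (blue) and both drugs (black) on the horizontal axis. The 3 series share the 4 DMSO libraries; for amino acid supply the simvastatin median is above 0 and the irinotecan median below it, and for interferon genes the irinotecan median is above 0.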

How the data were processed

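Poly(A) RNA of 16 U-251 MG libraries was sequenced as read pairs. The deposited table holds raw counts per gene, made by the authors; per the submitters' processing notes, STAR 2.7.1, FastQC and DESeq2 were used with build GRCh38. The annotation release, the strand setting and the counting tool were not given in the sources used here. Groups were taken from the treatment labels. In each group, the library whose title carries no replicate number is called replicate 4 here. Of 58243 gene IDs in the table, 57980 were found in GENCODE 29, from which names, positions and gene lengths were taken.

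Genes were kept by edgeR's filter (a minimum count of 10 and a total of at least 15), which left 16647. Counts were scaled by TMM and fitted with edgeR 4.0.16 (R 4.3.3), robust quasi-likelihood, 1 term per group over all 16 libraries, contrast irinotecan minus simvastatin, adjusted by Benjamini-Hochberg over all genes tested. The common biological coefficient of variation was 5.25%. Sharing of spread with the DMSO and combination libraries, and the filter, can move the number of calls. No pair of libraries within the irinotecan group or within the simvastatin group agreed within sampling noise. Other pairs were not compared. Scripts were tested on simulated data.

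Single library measures were compared with a two-sided exact permutation test. Promoter windows are RefSeq's, 250 bases before to 50 after each start. Patterns were searched only in the 250 bases before the start. Alternatives were median-ratio factors, library totals alone, DESeq2 1.42.0, limma-voom (limma 3.58.1), no filter, other sets of libraries, a replicate block, an adjusted p of 0.01, a minimum fold of 1.2 and leaving out each library.

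The members and gene lists were chosen with earlier results of these data known. The named genes are the 15 highest and 15 lowest fold changes among genes that passed and had a mean log2 CPM of 1 or more, up to 5 members of each list with the smallest p, each list's or role's first gene, and a fixed set of genes central to both drugs and to TGF-beta. EPAS1, IFI6 and TM7SF2 were chosen after their values were seen. Some genes that the rule takes are not reported here.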

Additional observations from a re-analysis of the deposited data

Results flagged for a closer look

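Over the genes named here and the library measures, 310 groups of 4 libraries were searched for a library far from the other 3, by the size of its gap to the nearest as a share of the range (Dixon's test at 95%). There were 18 such cases (5.81%), and chance flags about 1 group in 20. In 11 of them the library was simvastatin replicate 3. It was the high one for BLM (53.04 CPM, the other 3 at 50.1 to 50.4), CEMIP (70.7 CPM, the other 3 at 55.0 to 56.9), FADS1 (512 CPM, the other 3 at 466 to 474), FANCI (217 CPM, the other 3 at 198 to 200.3), HIF1A (1190.0 CPM, the other 3 at 1082 to 1085), SCD (2657 CPM, the other 3 at 2382 to 2417), TGFBR1 (69.5 CPM, the other 3 at 59.5 to 61.0), TOP2A (947 CPM, the other 3 at 832 to 844) and XPC (27.3 CPM, the other 3 at 24.8 to 24.97). It was the low one for IFITM3 (58.1 CPM, the other 3 at 65.4 to 66.0) and KRT18 (153 CPM, the other 3 at 169.8 to 173). Its mitochondrial share of 2.56% was the lowest of the 8 libraries compared, and its total of 29756711 counts was the highest of the simvastatin libraries.

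The other cases were CDC25B (177 CPM in irinotecan replicate 3, the other 3 at 184 to 186), CEMIP (171 CPM in irinotecan replicate 2, the other 3 at 187 to 188), HERPUD1 (64.5 CPM in irinotecan replicate 3, the other 3 at 69.0 to 69.3), IFITM1 (4.79 CPM in irinotecan replicate 3, the other 3 at 3.75 to 3.86), MCM6 (133 CPM in irinotecan replicate 4, the other 3 at 130.2 to 130.5), NEFL (921 CPM in simvastatin replicate 2, the other 3 at 952 to 955) and TXNIP (255 CPM in simvastatin replicate 4, the other 3 at 241 to 243). In these genes irinotecan and simvastatin did not overlap, apart from HIF1A and TGFBR1, which did not pass the test.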

How the results depend on the processing

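The count of genes that passed stayed within 1.5 times of 5045 under all alternatives but 1. A test against a minimum fold of 1.2 left 1146 genes, 672 higher with irinotecan and 474 higher with simvastatin, because it asks for a larger difference. Library totals alone gave 4073 higher with irinotecan and 1533 higher with simvastatin. Leaving out each library in turn gave 4438 to 4871 genes, 2245 to 2534 of them higher with irinotecan and 2143 to 2404 higher with simvastatin. With the replicate block, 5273 genes passed over the 12 numbered libraries, against 4140 in the same libraries without it, and 5680 over all 16. The labels do not say that numbers pair libraries. The block over all 16 also joined the libraries without a number in their titles, called replicate 4 here. With deviations taken over all 16 libraries, irinotecan replicate 4 and simvastatin replicate 4 correlated at -0.11. The values that follow are from the 12 numbered libraries. Deviations of same-numbered libraries correlated at 0.088, 0.139 and 0.387, and not every library correlated best with its own number. Irinotecan replicate 3 correlated at -0.23 and -0.25 with simvastatin replicates 1 and 2. Whether same-numbered libraries share more than a number cannot be told from these values.

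Of 134 named genes that passed, 115 kept their direction and their side of the threshold in every alternative run; 0 reversed, and 19 lost the call somewhere, 3 of them outside the minimum fold test. Of genes that had not passed, these changed sign: HIF1A (0.038 with library totals alone, and -0.062 to 0.0030 on leaving out a library, above 0 without simvastatin replicate 3), MKI67 (-0.017 to 0.12 on leaving out a library, below 0 without irinotecan replicate 3), TGFB1 (0.042 with library totals alone) and TGFB2 (0.045 with library totals alone, and -0.12 to 0.020 on leaving out a library, above 0 without irinotecan replicate 1, irinotecan replicate 2 or simvastatin replicate 3). The cause was not tested. Of 572 group means, 74 moved by more than 1 SD without TMM factors. Depth limits the genes near 1 CPM, where each library holds few reads of a gene.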

Other observations

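Several lists outside the comparisons above also differed between the drugs. Of 16 genes of NF-kB and its feedback tested, 6 were higher with irinotecan and 1 with simvastatin, with a median log2 fold change of 0.13. The adhesion molecule ICAM1 stood at 2.89, 2.81, 3.58 and 3.78 CPM with irinotecan and 1.93, 1.57, 2.62 and 2.06 CPM with simvastatin (log2 fold change 0.66 ± 0.15, edgeR adjusted p = 0.00123), and the surface protein CD83 at 6.69 to 8.07 CPM and 4.25 to 5.24 CPM (0.61). Both had separate groups with irinotecan high, while CXCL8, a gene that NF-kB is known to turn on, was high with simvastatin. RELA, the gene of the p65 subunit and the one higher with simvastatin, had a fold change of -0.23. Of 22 immediate early genes tested, 10 were higher with simvastatin and 4 with irinotecan (median -0.15). The AP-1 subunit JUN stood at 779, 740.5, 766 and 783 CPM with simvastatin and 571, 528, 589 and 542 CPM with irinotecan (-0.46 ± 0.042, adjusted p = 6.01e-10), and IER5 had the opposite sign (0.43).

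Among growth factor and guidance genes, single members differed in both directions. ERBB3, a receptor of neuregulins, stood at 4.41, 4.98, 4.17 and 4.38 CPM with irinotecan and 2.38, 1.57, 2.17 and 2.22 CPM with simvastatin (1.10 ± 0.15, adjusted p = 6.13e-07), whereas NRG1, which encodes such a ligand, stood at 62.8 to 71.7 CPM and 92.0 to 99.2 CPM (-0.51) and was higher with simvastatin. Over all genes tested, 14.9% were higher with simvastatin and 15.4% with irinotecan. Of 32 axon guidance genes tested, 14 were higher with simvastatin and 6 with irinotecan (median -0.12). The repellent SLIT3 (-0.52) and the co-receptor NRP2 (-0.32) were among the former, and SEMA3F, a ligand of NRP2, stood at 12.7 to 14.8 CPM with irinotecan and 7.86 to 11.1 CPM with simvastatin (0.58). Of 17 splicing regulators tested, 9 were higher with simvastatin by small amounts (list median -0.15, or -0.076 with library totals alone). HNRNPK, which encodes an RNA-binding protein, stood at 958 to 995 CPM with simvastatin against 861 to 882 CPM (-0.16). MAP1LC3B, which encodes an autophagosome protein, was higher with simvastatin at 136 to 155 CPM against 117 to 125 CPM (-0.23).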
